A study of Arabidopsis thaliana with 8 samples.

Results

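The genes described here are 9 Arabidopsis thaliana genes of jasmonate synthesis, for enzymes of its plastid steps and for the reductase that follows them; other genes of the pathway, such as the lipoxygenase gene LOX6, are outside this list. They were taken by locus from a fixed list of 9 among the 27172 genes of the deposited tables: LOX2 (AT3G45140), LOX3 (AT1G17420), LOX4 (AT1G72520), AOS (AT5G42650), AOC1 (AT3G25760), AOC2 (AT3G25770), AOC3 (AT3G25780), AOC4 (AT1G13280) and OPR3 (AT2G06050). The list names loci and sets no threshold on measured values, but it was drawn up with earlier results of these data known. All 9 loci were in the tables, and all 9 passed the filter on low counts in every comparison. The study treated leaves of plants of the Col-0 ecotype, aged 3 weeks, by infiltration with elf18 at 10 µM, an immunogenic peptide taken from the elongation factor Tu of bacteria and sensed by the kinase EFR, or, for mock, with MgCl2 at 10 mM. Mock and elf18 plants all carried the transgene 35S:uORFsTBF1-LUC, a luciferase reporter under the constitutive 35S promoter with upstream open reading frames of the immune transcription factor gene TBF1. Each of 4 lysates, 2 mock and 2 elf18, pooled 2 leaves from each of about 24 plants and gave 1 RNA-seq library and 1 library of ribosome footprints, the stretches of mRNA that ribosomes shield from nuclease. The sources used here did not give the interval from infiltration to harvest.

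Jasmonates are lipid-derived hormones of wound, herbivore and pathogen responses, and in leaves they are made from linolenic acid of plastid membranes. Lipoxygenases add oxygen to the fatty acid, allene oxide synthase (AOS) turns the product into an allene oxide, and allene oxide cyclases (AOC) close it into oxo-phytodienoic acid (OPDA). In the peroxisome OPR3 reduces the ring of OPDA, after which beta-oxidation shortens the side chain, and conjugation to isoleucine by JAR1 gives the form that the receptor COI1 binds.

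Exon counts totalled 7898180 to 15405467 per RNA library, and coding-sequence counts 6409393 to 12834781 in RNA and 4752563 to 6717946 in footprints. The elf18 RNA libraries detected fewer genes over coding sequences (13826 and 13518) than the mock RNA libraries (16559 and 16816), and their replicates correlated less across 16177 genes on log2 CPM (r = 0.741, against 0.891 in mock RNA and 0.814 in both footprint groups). Among the footprint libraries, mock replicate 1 detected 12935 genes and mock replicate 2 detected 17795. The leaf label was matched by the 5 mesophyll markers, whose summed exon level was 58940 to 59365 CPM in mock RNA and 54347 to 63194 CPM with elf18, while the 3 flower markers reached at most 0.508 CPM in any RNA library. CPM are counts relative to library size after scaling between libraries with TMM (trimmed mean of M-values), and they are not corrected for gene length, so levels were compared within a gene only. Replicates are separate lysates, and nothing in the labels says that they came from separate plantings, so p-values measure the spread between these lysates.

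The first comparison asked which transcripts changed in abundance with elf18, from exon counts of the 4 RNA libraries. Of the 9 genes, 4 rose and none fell by edgeR's quasi-likelihood test at a Benjamini-Hochberg adjusted p under 0.05, which is 44.4% of them (± gives standard errors throughout unless an SD is named), where 3.04% of all 15870 tested genes rose and 0.158% fell. The risen genes were the lipoxygenase genes LOX3 and LOX4, the allene oxide synthase gene AOS and the cyclase gene AOC3. LOX2, AOC1, AOC2, AOC4 and OPR3 did not pass. DESeq2 called 6 risen, adding AOC1 and OPR3, where it called 7.84% of all genes (for DESeq2, here and below, of those it gave an adjusted p), and limma voom 5, adding OPR3, where it called 3.08%. Neither called any of the 9 fallen (DESeq2 8.71% and limma voom 0.397% of all genes), and the 6 with an unadjusted edgeR p under 0.05, where 15.9% of all genes had one, were all higher. The median log2 change was 0.45 over the 9 genes and -0.09 over all genes. In whole leaves, a change in the number of cells that express a gene and a change in its RNA per cell cannot be told apart. Markers of the vasculature summed to 690 to 745 CPM in mock RNA and 838 to 1070 CPM with elf18, with 0 of 5 called by edgeR, 2 higher at an unadjusted p under 0.05 and 2 risen by DESeq2 (SUC2 and AHA3). The sum was carried by those 2, while SWEET11 (108 CPM on average in mock, 91.9 CPM with elf18) and APL (21.7 and 12.7 CPM) were lower in value. Markers of the epidermis summed to 553 to 570 CPM in mock RNA and 460 to 514 CPM with elf18, with 0 of 5 called by edgeR. That sum was carried mainly by CUT1 (285 CPM on average in mock, 240 CPM with elf18) and FDH (210 and 178 CPM). ATML1 was also lower in value (56.2 and 49.5 CPM), while the rare PDF1 (9.73 and 16.7 CPM) and GL2 (0.419 and 2.26 CPM) were higher. Guard cell marker sums overlapped, at 28.6 to 39.7 CPM in mock RNA and 12.8 to 54.8 CPM with elf18. Of these, 0 of 5 were called by edgeR, and DESeq2 called HT1 fallen. The part of these shifts in the results was not tested.

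The lipoxygenases, which open the pathway, did not move together. LOX4 stood at 438 and 424 CPM in mock and at 1603 and 1653 CPM with elf18. Both elf18 libraries lay far above both mock libraries, with replicate spread of 9.95 CPM (SD, n = 2) in mock and 35.4 CPM with elf18. LOX4 rose 3.77-fold (log2 1.92 ± 0.09; edgeR adjusted p = 0.00107), and ranked 11 among all 15870 genes by the size of its test statistic. LOX3 was at 623 and 655 CPM in mock and 1315 and 1419 CPM with elf18, again without overlap. It rose 2.14-fold (standard error 0.09 on the log2 scale; edgeR adjusted p = 0.00296).

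LOX2, the lipoxygenase known for much of the jasmonate made in wounded leaves, showed no such rise. Its exon level was 265 and 282 CPM in mock, and 229 and 93.7 CPM in elf18 replicates 1 and 2. Both elf18 libraries were below both mock libraries, but they differed from each other by more than elf18 replicate 1 did from mock. The log2 change of -0.76 ± 0.39 did not pass (edgeR adjusted p = 0.487). That value rested on single libraries. With only elf18 replicate 2 it was -1.54 and called (edgeR adjusted p = 2.04e-06), in a fit that called 16% of all genes fallen, and with only elf18 replicate 1 it was -0.26.

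AOS, the single gene for allene oxide synthase, was measured at 443 and 411 CPM in mock and 683 and 656 CPM with elf18. The groups did not overlap, and AOS rose 1.57-fold (log2 0.65 ± 0.10; edgeR adjusted p = 0.0300). The call was lost without either RNA mock library, with adjusted p of at most 0.204.

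The 4 cyclase genes gave different values, and they need care. AOC1, AOC2 and AOC3 are similar copies that follow one another directly as protein-coding genes in the RefSeq table of assembly TAIR10.1. The sources used here do not say how multiply matching reads were counted, so the split of reads among these copies is uncertain. AOC3 was at 96.6 and 116 CPM in mock and 211 and 223 CPM with elf18, and rose 2.04-fold (log2 1.03 ± 0.16; edgeR adjusted p = 0.0283). Without RNA mock replicate 1 its adjusted p was 0.183. AOC1 gave 266 and 253 CPM in mock against 383 and 326 CPM with elf18, higher in both elf18 libraries, with a log2 change of 0.45 ± 0.13 that did not pass (edgeR adjusted p = 0.145). AOC2 went the other way in value, with 203 and 194 CPM in mock and 166 and 120 CPM with elf18, and also did not pass (log2 -0.47 ± 0.19; edgeR adjusted p = 0.319). AOC4, which lies on another chromosome, was rare, with 37 to 156 exon counts per library. Its levels of 6.60 and 12.3 CPM in mock and 3.44 and 10.9 CPM with elf18 overlapped, and its sign depended on which library was left out.

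OPR3, the peroxisomal reductase, was at 446 and 463 CPM in mock and at 594 and 606 CPM with elf18. Both elf18 libraries were above both mock libraries, yet the log2 change of 0.40 ± 0.10 did not pass after adjustment over all genes (edgeR adjusted p = 0.140). Counting non-overlap alone, 6 of the 9 genes had both elf18 libraries above both mock libraries (LOX3, LOX4, AOS, AOC1, AOC3 and OPR3), where 18.3% of all genes did, and LOX2 and AOC2 had both below, where 27.7% did.

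Over coding sequences of the same RNA libraries, LOX3 and LOX4 were the only 2 of the 9 that rose by edgeR, where 2.59% of 15441 genes rose, and none fell, where 0.117% did. DESeq2 called 6 risen (7.53% of all genes) and 0 fallen (9.47%), limma voom 4 risen (2.51%) and 0 fallen (0.499%), and 6 had an unadjusted edgeR p under 0.05, as 15.9% of all genes did. Both elf18 libraries were above both mock libraries for 6 of the 9 (17.7% of all genes) and below for 2 (28.4%). LOX4 changed by 1.86 ± 0.09 and LOX3 by 1.07 ± 0.09 on the log2 scale (edgeR adjusted p = 0.00249 and 0.00579). AOS and AOC3 kept values close to those over exons, 0.64 ± 0.11 and 1.05 ± 0.21, but missed the threshold (edgeR adjusted p = 0.0522 and 0.0957). In a fit of all 8 libraries, which share 1 estimate of the spread, both passed (edgeR adjusted p = 0.0112 for AOS and 0.0110 for AOC3).

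**Figure D1:**
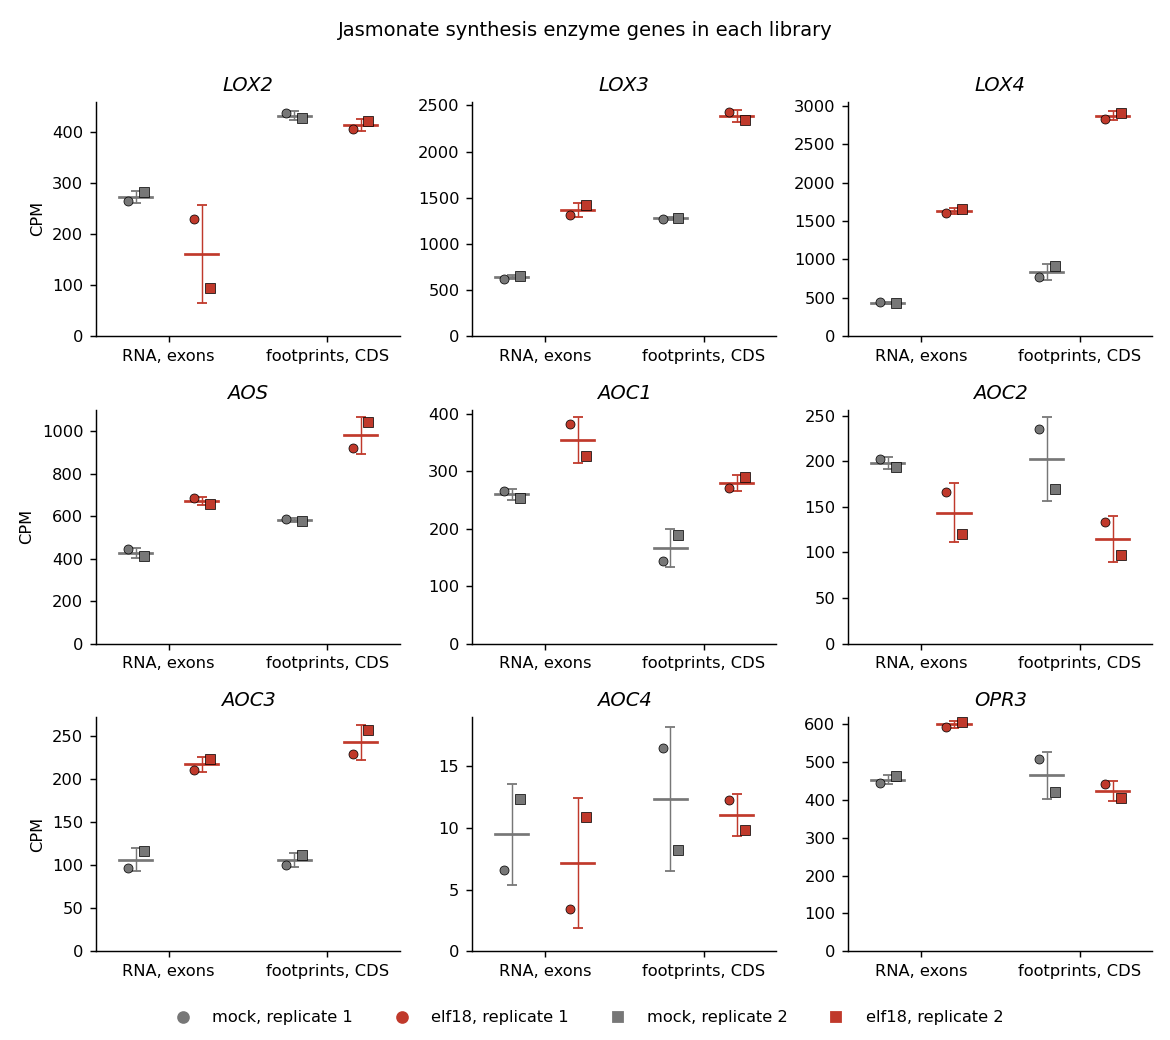
Level of each of the 9 genes in every library, in CPM (linear axes from 0, one panel per gene), for RNA over exons on the left of each panel and footprints over coding sequence on the right, mock in grey and elf18 in red. Points are libraries, horizontal lines the mean of n = 2 and bars the SD; LOX4 went from 438 and 424 CPM to 1603 and 1653 CPM in RNA, while LOX2 RNA split between 229 and 93.7 CPM with elf18.

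The second comparison asked whether ribosome occupancy of these messages changed, from footprint counts over coding sequences. In footprints 4 of the 9 genes rose, where 2.59% of all 14446 tested genes rose, and none fell, where 0.166% fell. Unadjusted edgeR p was under 0.05 for 6 of the 9, where it was for 8.36% of all genes, AOC1 and the lower AOC2 included. DESeq2 called 5 risen (8.13% of all genes) and AOC2 fallen (2.74%), and limma voom 5 risen (3.36%) and 0 fallen (0.748%), both adding AOC1. The 4 risen genes were LOX3, LOX4, AOS and AOC3, the 4 that had risen in exon RNA; RNA and footprints came from the same lysates. The median log2 change was 0.75 over the 9 genes and 0.01 over all genes. Mesophyll markers summed to 32136 to 32188 CPM in mock footprints and 26383 to 27367 CPM with elf18, with 1 of 5 fallen (RBCS1A, a small subunit of Rubisco, by 0.50 ± 0.07 on the log2 scale, edgeR adjusted p = 0.00145); DESeq2 also called LHCB1.1 and limma voom also RCA fallen. Vascular markers summed to 884 to 960 CPM in mock footprints and 1043 to 1070 CPM with elf18, with 0 of 5 called by edgeR and AHA3 risen by DESeq2. Epidermis markers summed to 901 to 982 CPM in mock and 753 to 757 CPM with elf18, with none called by edgeR. Among them the rare PDF1 was higher in value (3.81 CPM on average in mock, 6.22 CPM with elf18). Guard cell markers summed to 54.0 to 74.5 CPM in mock and 40.4 to 45.1 CPM with elf18, with none called by edgeR. The part of these shifts was not tested.

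LOX4 footprints stood at 764 and 912 CPM in mock and 2832 and 2910 CPM with elf18. They rose 3.42-fold (log2 1.77 ± 0.12; edgeR adjusted p = 9.46e-06). LOX3 footprints went from 1265 and 1284 CPM to 2430 and 2343 CPM, a 1.87-fold rise (log2 0.90 ± 0.11; edgeR adjusted p = 0.000368). For both genes the groups were far apart and replicate spread was small in proportion. LOX2 footprints, by contrast, were level across the 4 libraries, with 439 and 427 CPM in mock and 406 and 422 CPM with elf18. The log2 change was -0.07 ± 0.17 (edgeR adjusted p = 1.00), and the elf18 library of low LOX2 RNA, replicate 2, was not low in LOX2 footprints.

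AOS footprints were at 587 and 576 CPM in mock and 919 and 1042 CPM with elf18, and rose 1.69-fold (log2 0.75 ± 0.14; edgeR adjusted p = 0.0111). AOC3 footprints rose 2.29-fold (log2 1.19 ± 0.23; edgeR adjusted p = 0.0138), from 100.3 and 112 CPM to 228 and 257 CPM. Without footprint elf18 replicate 2 the calls of AOS and AOC3 were lost (adjusted p = 0.0832 and 0.0527). Among the other cyclases, AOC1 gave 143 and 190 CPM in mock and 270.2 and 290 CPM with elf18, a log2 difference of 0.75 ± 0.22 that did not pass (edgeR adjusted p = 0.156). AOC2 was at 235 and 170 CPM in mock and 133 and 97.3 CPM with elf18, a log2 difference of -0.81 ± 0.27 that did not pass either (edgeR adjusted p = 0.244). AOC4 had 50 to 79 footprint counts per library, and its groups overlapped.

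OPR3 footprints did not follow the higher RNA values. They were at 509 and 422 CPM in mock and 442 and 405 CPM with elf18, and the groups overlapped. Their log2 difference was -0.14 ± 0.17 (edgeR adjusted p = 1.00). By non-overlap, 5 of the 9 genes had both elf18 footprint libraries above mock (19.4% of all genes), and LOX2 and AOC2 had both below (19.9% of all genes).

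**Figure D2:**
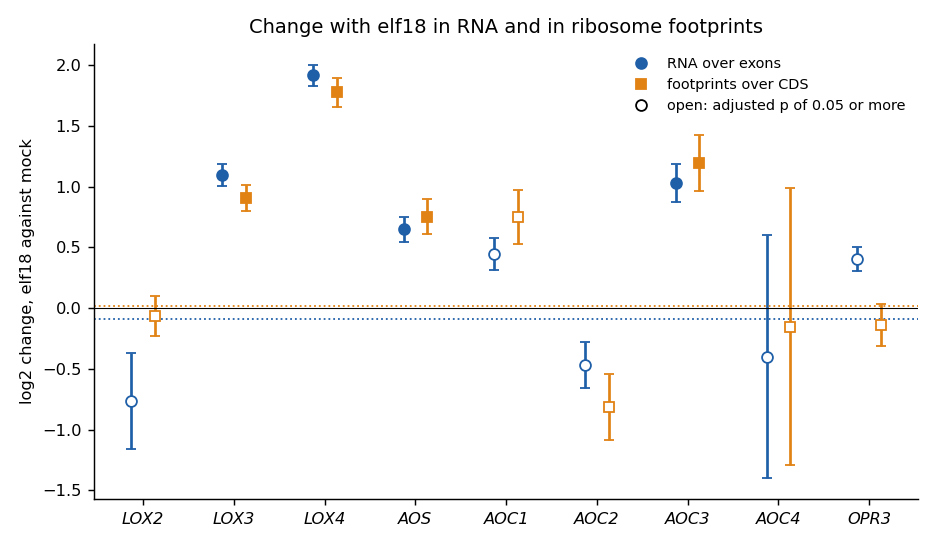
Log2 change of each gene, elf18 against mock, in RNA over exons (blue circles) and footprints over coding sequence (orange squares), with standard errors from edgeR; filled symbols have an adjusted p under 0.05 and dotted lines are the medians of all genes tested, -0.09 in RNA and 0.01 in footprints. LOX3, LOX4, AOS and AOC3 are filled in both assays, and the values for LOX2 and OPR3 lie farther apart between the assays than those for LOX3, LOX4 and AOS.

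Ratios between 2 genes within a library are free of scaling between libraries, and the pairs given here were chosen after their values were seen. The exact permutation of 2 against 2 libraries cannot go below p = 0.333 (two-sided), so they are given as descriptions. LOX4 had 1.66 and 1.51 exon counts per LOX2 count in mock RNA, and 7.00 and 17.6 with elf18. In footprints the same ratio was 1.74 and 2.14 in mock and 6.98 and 6.90 with elf18. LOX4 relative to LOX2 was thus 7.04-fold higher with elf18 in exon RNA and 3.60-fold higher in footprints, as ratios of geometric means, and no elf18 library overlapped a mock library in either assay. LOX4 relative to LOX3, both of which rose, was 1.77-fold higher in exon RNA and 1.84-fold higher in footprints.

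Within the cyclases AOC2 held a smaller share of the counts with elf18, and AOC1 and AOC3 larger ones, as values that rest on the uncertain split of reads. AOC2 made up 35.4% and 33.7% of the summed AOC exon counts of the mock libraries, against 21.8% and 17.7% with elf18. AOC3 made up 16.9% and 20.2% in mock, against 27.6% and 32.8% with elf18. In footprints AOC2 held 47.5% and 35.4% in mock, against 20.6% and 14.9% with elf18, and AOC3 held 20.3% and 23.3%, against 35.5% and 39.3%. AOC1 made up 46.5% and 44.0% of exon counts in mock, against 50.2% and 47.9% with elf18, and 28.9% and 39.6% of footprint counts, against 42.0% and 44.3%. For these 3 genes and both assays the elf18 shares lay outside the mock range. Shares of the same sum are tied, so a smaller AOC2 share goes with larger shares among the other copies. RNA and footprints also came from the same lysates. These separations are therefore not independent of each other, and how often such shares separate among other genes was not computed. The count ratio of AOC3 to AOC2 was 2.87-fold higher with elf18 in exon RNA and 4.03-fold higher in footprints.

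Since reads may be shared among the copies, AOC1 to AOC4 were also summed as 1 gene. The sum was 572 and 575 CPM in mock RNA and 763 and 681 CPM with elf18, a log2 change of 0.33 that did not pass (edgeR adjusted p = 0.167). In footprints it was 495 and 479 CPM in mock and 644 and 654 CPM with elf18 (log2 0.41, edgeR adjusted p = 0.336). The elf18 libraries were above mock in both assays, so the summed cyclase level was higher in value in all of them, without passing the test.

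OPR3 relative to AOS showed the opposite order. In exon RNA there were 1.01 and 1.13 OPR3 counts per AOS count in mock and 0.870 and 0.924 with elf18. In footprints the ratio was 0.867 and 0.732 in mock and 0.481 and 0.388 with elf18. The fold with elf18 was 0.842 in exon RNA and 0.542 in footprints.

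**Figure D3:**
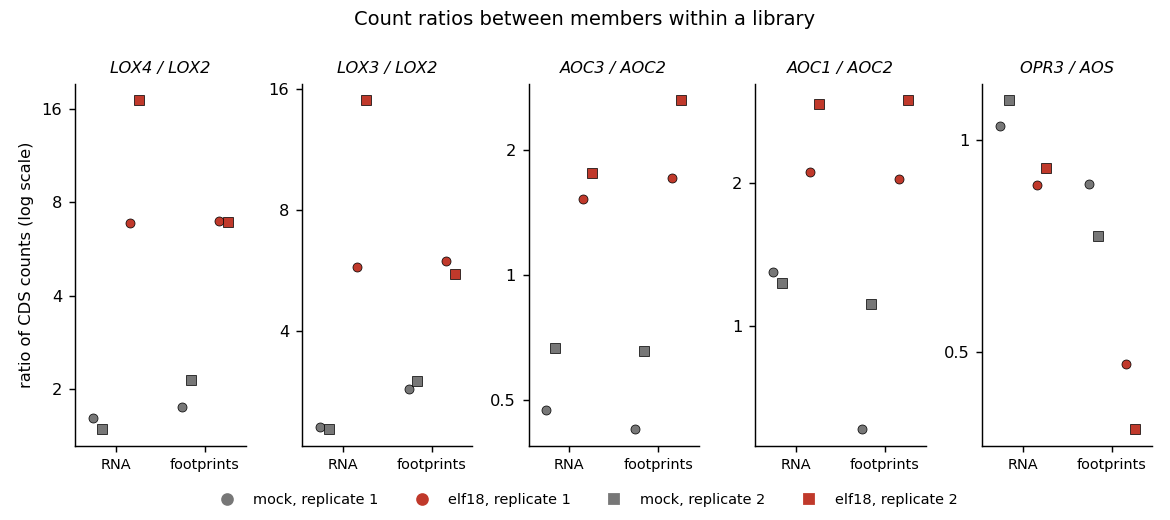
Ratio of coding-sequence counts of 2 genes within each library (log axes), for RNA and footprints, mock in grey and elf18 in red, circles for replicate 1 and squares for replicate 2. The elf18 libraries lie above mock for LOX4 over LOX2, LOX3 over LOX2, AOC3 over AOC2 and AOC1 over AOC2, and below mock for OPR3 over AOS, without overlap in any panel.

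The third comparison asked whether translational efficiency, footprints relative to RNA over coding sequences, changed with elf18. None of the 9 genes was called higher or lower by edgeR's quasi-likelihood test of the interaction, and neither was any other gene (0% of 16177 in each direction); 4.48% of all genes and 0 of the 9 had an unadjusted p under 0.05. DESeq2 (0.299% of all genes higher, 0.251% lower) and limma voom (0.0124% higher, 0% lower) called 0 of the 9 as well. LOX2 had a log2 difference in efficiency of 0.79 ± 0.38 (unadjusted p = 0.0544) and OPR3 of -0.44 ± 0.21 (unadjusted p = 0.0531), against a median of 0.16 over all genes. The genes that rose in both assays had small values, -0.12 ± 0.16 for LOX3, -0.04 ± 0.17 for LOX4, 0.15 ± 0.19 for AOS and 0.19 ± 0.32 for AOC3. Without RNA elf18 replicate 1, the LOX2 value was 1.56 and passed (edgeR adjusted p = 0.0134; 0.215% of all genes were called higher there), and without RNA elf18 replicate 2 it was 0.30 and did not pass.

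LOX2 had log2 ratios of footprint CPM to RNA CPM of 0.26 and 0.14 in the mock lysates and 0.46 and 1.79 in the elf18 lysates, on a scale set over all 8 libraries. The elf18 lysate of replicate 2, the one with low LOX2 RNA, stood apart. For OPR3 the mock lysates gave -0.24 and -0.52. Its elf18 lysates were lower in value, at -0.76 and -0.88. How often lysate ratios separate in this way among all genes was not computed, and edgeR's test of the interaction did not call OPR3. LOX3 had 0.58 and 0.53 in mock against 0.52 and 0.35 with elf18. LOX4 had 0.38 and 0.67 in mock against 0.49 and 0.48 with elf18, so both genes were above 0 in all 4 lysates.

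Within mock leaves, footprints were higher relative to RNA than on the scale of all genes for 2 of the 9, where 1.56% of 16177 genes were called higher, and lower for none, where 1.87% were. DESeq2 called the same number, 2, higher (10.4% of all genes) and AOC1 lower (9.06%), limma voom 2 higher (1.89%) and 0 lower (1.88%), and 4 of the 9, AOC1 and OPR3 included, had an unadjusted edgeR p under 0.05 (10.9%). LOX3 was higher by 0.56 ± 0.11 and LOX4 by 0.53 ± 0.12 on the log2 scale (edgeR adjusted p = 0.00770 and 0.0161). Both calls were lost without either RNA mock library, and that of LOX4 also without footprint mock replicate 2. AOC1 was at -0.71 ± 0.19 and missed the threshold (edgeR adjusted p = 0.0534). Blocking on the lysate, which RNA and footprint libraries share, AOC1 was called lower (log2 -0.72, edgeR adjusted p = 0.0169). Summed over AOC1 to AOC4, whose split of reads is uncertain, the value without that block was -0.35 and did not pass (edgeR adjusted p = 0.282).

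Within elf18 leaves 3 of the 9 were higher, where 2.95% of all genes were, and 1 was lower, where 2.68% were. DESeq2 called 2 higher (8.21% of all genes) and 2 lower (6.71%), limma voom 3 higher (4.49%) and 1 lower (2.9%), and 5 of the 9 had an unadjusted edgeR p under 0.05 (16.7%). LOX3 was higher by 0.43 ± 0.11, LOX4 by 0.49 ± 0.12 and LOX2 by 0.99 ± 0.27 on the log2 scale (edgeR adjusted p = 0.0274, 0.0192 and 0.0414). With the size factors of DESeq2 in place of TMM these 3 calls were lost (adjusted p = 0.0894 for LOX3, 0.05003 for LOX4 and 0.0605 for LOX2), and the calls depended on other choices too. LOX2 lost its call in 8 of 16 alternatives, among them DESeq2, a filter at a mean of 50 counts, leaving out RNA elf18 replicate 2 (log2 0.50) and leaving out any 1 footprint library (adjusted p of at most 0.178). LOX3 and LOX4 lost theirs also without RNA elf18 replicate 1 and without either footprint elf18 library, where adjusted p reached 0.244 for LOX3 and 0.180 for LOX4. OPR3 footprints were lower relative to RNA, at -0.82 ± 0.15 on the log2 scale (edgeR adjusted p = 0.00286), and stayed called under all 16 alternatives, with adjusted p of at most 0.0357. In mock the OPR3 value was -0.38 ± 0.15 and not called (edgeR adjusted p = 0.284); the difference between mock and elf18 is the change in efficiency, which did not pass.

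**Figure D4:**
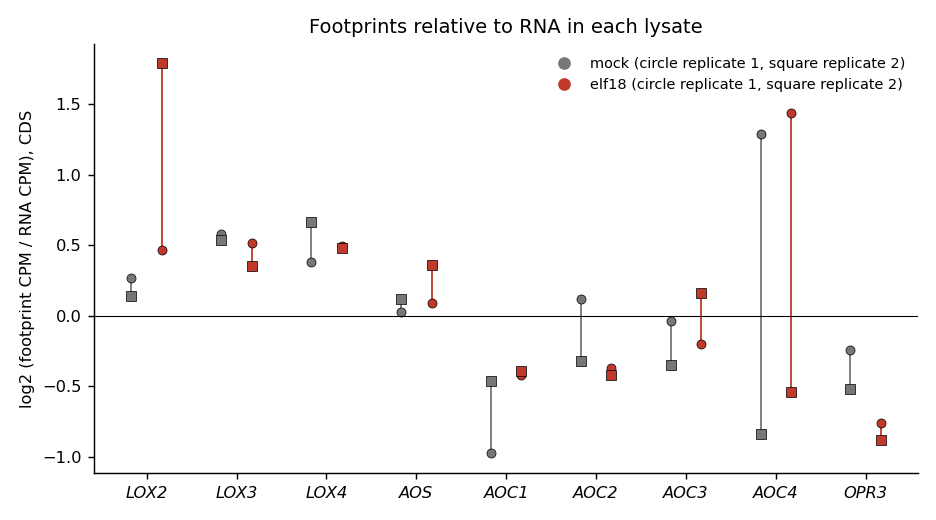
Log2 ratio of footprint CPM to RNA CPM over coding sequence for each gene and lysate, mock in grey and elf18 in red, circles for replicate 1 and squares for replicate 2, with a line joining the 2 lysates of a treatment. OPR3 lies at -0.24 and -0.52 in mock and -0.76 and -0.88 with elf18, LOX2 reaches 1.79 in elf18 replicate 2, and AOC4, of few counts, spans both sides of 0.

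The share of a gene's exon counts that fell outside its coding sequence, mainly untranslated regions, was at most 6.63% in every library for the lipoxygenases and OPR3, and varied more among the cyclases. LOX2 had 0.0240% and 0.892% in mock and 2.72% and 0.892% with elf18, LOX4 2.79% and 2.48% against 4.93% and 3.92%, and OPR3 2.11% and 5.93% against 4.67% and 6.63%. AOC1 had 23.3% and 25.8% in mock against 28.5% and 11.3% with elf18, and AOC2 22.4% and 21.3% against 21.8% and 17.7%. AOC3 had 23.0% and 11.9% in mock against 5.77% and 21.7% with elf18, and the rare AOC4 26.0% and 14.6% against 0% in both elf18 libraries. Over 8982 genes the median share was 12.9% and 13.2% in mock and 10.6% and 7.67% with elf18, so the lipoxygenases lay below the typical gene and AOC1 and AOC2 above it in all 4 libraries. The lower quartile over these genes was 5.74% and 6.34% in mock and 0% in both elf18 libraries. A share of 0%, as for AOC4, was thus common with elf18.

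The wider pathway was read from a list of 37 further genes of jasmonate synthesis, turnover and response, of which 30 were tested in each assay. In exon RNA 1 rose, against 3.04% of all genes, and 3 fell, against 0.158%. In footprints 2 rose, against 2.59% of all genes, and 1 fell, against 0.166%. Among the 18 tested genes of synthesis, OPR1, a reductase related to OPR3, rose 2.65-fold in exon RNA, from 332 and 315 CPM in mock to 904 and 810 CPM with elf18 (log2 1.40 ± 0.11; edgeR adjusted p = 0.00230). OPR1 footprints rose by 1.48 ± 0.15 on the log2 scale (edgeR adjusted p = 0.000129), from 312 and 322 CPM to 860 and 910 CPM. OPR1 sits next to OPR2, a close copy at 3.59 to 8.64 CPM in exon RNA, and the split of reads between them is uncertain.

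OPCL1, a ligase that activates OPDA-derived acids for beta-oxidation, rose in footprints from 383 and 378 CPM to 668 and 560 CPM (log2 0.69 ± 0.17; edgeR adjusted p = 0.0499), a call lost with DESeq2's size factors, with a filter at a mean of 50 counts and without footprint elf18 replicate 1. Its exon RNA value of 0.58 ± 0.11 did not pass (edgeR adjusted p = 0.0641). The desaturase gene FAD7, upstream of the lipoxygenases, did not pass in either assay (log2 -0.17 ± 0.12 in exon RNA and -0.47 ± 0.19 in footprints). JAR1, which conjugates jasmonate to isoleucine, had 300 and 191 CPM of footprints in mock and 114 and 151 CPM with elf18, without passing (log2 -0.89 ± 0.27; edgeR adjusted p = 0.170); DESeq2 and limma voom both called it fallen. The hydroperoxide lyase gene HPL1 had exon counts of 189 and 55 in the mock libraries and 0 in both elf18 libraries. It was not called by edgeR (adjusted p = 0.133) but was called fallen by DESeq2. HPL1 footprints averaged 6.13 CPM in mock (SD 4.87 CPM) and 5.18 CPM with elf18 (SD 3.81 CPM). Large drops were common in exon RNA, where the 5th percentile of log2 change over all genes was -6.51.

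Of the 9 tested turnover genes, 3 fell in exon RNA and 1 in footprints. CYP94C1, an oxidase of jasmonoyl-isoleucine, was at 411 and 400 CPM in mock and 223 and 228 CPM with elf18, and fell by 0.85 ± 0.11 on the log2 scale (edgeR adjusted p = 0.0158). CYP94C1 footprints fell by 0.99 ± 0.17 (edgeR adjusted p = 0.00517), from 642 and 651 CPM to 357 and 295 CPM. The locus AT5G05600 fell in exon RNA by 1.04 ± 0.14 on the log2 scale (edgeR adjusted p = 0.0156). AT2G38240, at 86.0 and 82.9 CPM in mock RNA and 26.6 and 22.0 CPM with elf18, fell to 0.287 times mock (edgeR adjusted p = 0.0172, with 0.24 as the log2 standard error). The footprint values of these loci, -0.97 ± 0.25 and -0.87 ± 0.46, did not pass (edgeR adjusted p = 0.0788 and 0.744). In 6 of 12 alternatives AT5G05600 was called fallen in footprints, by DESeq2 (adjusted p = 0.000199), limma voom (adjusted p = 0.00835), no filter, the replicate block, the fit of all 8 libraries and without footprint mock replicate 1. All 3 exon calls were lost without RNA mock replicate 1 (adjusted p = 0.0523 to 0.0646), and that of CYP94C1 in footprints without footprint elf18 replicate 2 (adjusted p = 0.0592). IAR3, an amidohydrolase of jasmonoyl-isoleucine, had a footprint value of 0.97 ± 0.34 and did not pass (edgeR adjusted p = 0.277), though DESeq2 called it risen. JRG21 (jasmonate-regulated gene 21) had an exon RNA value of 1.88 ± 0.80 and did not pass by edgeR (adjusted p = 0.347) but was called risen by DESeq2, with 5.52 and 3.11 CPM in mock and 18.7 and 13.4 CPM with elf18.

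Of the response genes, 3 of 7 were tested and none was called by edgeR in either assay. TAT3 was higher in exon RNA at an unadjusted p under 0.05 and was called risen there by DESeq2. The receptor gene COI1 was at 27.5 and 21.7 CPM in mock RNA and 15.2 and 8.92 CPM with elf18 (log2 -1.03 ± 0.52; edgeR adjusted p = 0.475). TAT3, a tyrosine aminotransferase gene induced by jasmonate, was at 17.5 and 24.8 CPM in mock and 35.7 and 43.8 CPM with elf18 (log2 0.91 ± 0.36; edgeR adjusted p = 0.300). The marker genes of jasmonate response VSP1, VSP2, PDF1.2 and THI2.1 were too rare to test, and VSP2 had exon counts of 4 and 10 in the mock libraries and 0 in both elf18 libraries.

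**Figure D5:**
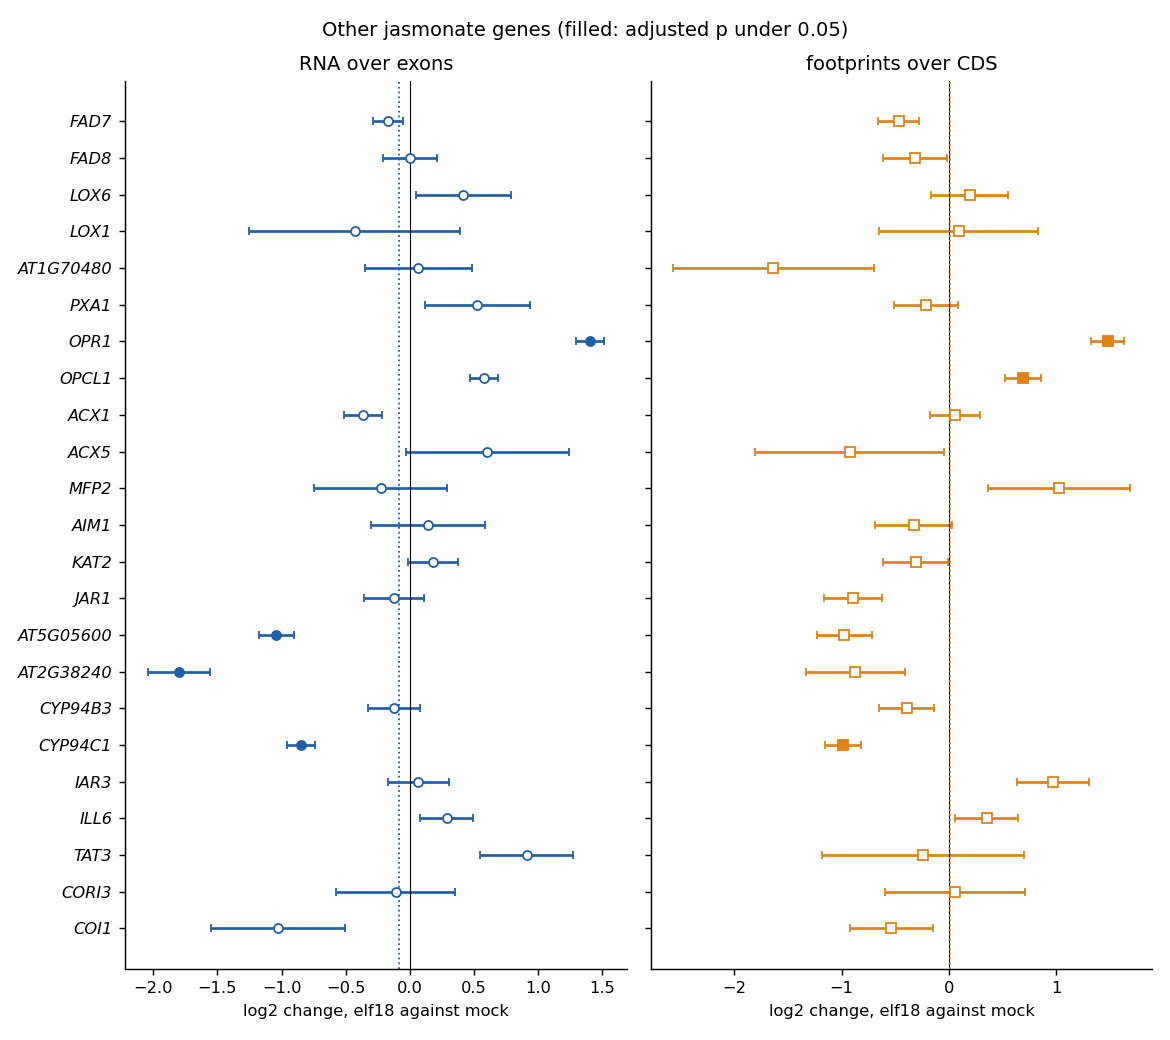
Log2 change with elf18 of 23 other jasmonate genes tested in both assays, RNA over exons on the left and footprints over coding sequence on the right, with standard errors from edgeR; filled symbols have an adjusted p under 0.05 and dotted lines are the medians of all genes. OPR1 is filled to the right of 0 in both panels and CYP94C1 to the left in both, with AT5G05600 and AT2G38240 filled in RNA and OPCL1 in footprints.

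Likeness across the 8 libraries was measured as the root mean square difference of log2 levels after each gene was centred on its mean over the libraries, among 3362 genes of at least 50 CPM on average, as a description with no test. Among the 9 genes, LOX3 and AOS were the closest pair, at 0.25, followed by AOC3 and AOS at 0.29 and LOX3 and AOC3 at 0.35. LOX4 was closest to LOX3, at 0.42. Many genes outside the 9 were nearer. Among the 3362 genes AOS ranked 75 by nearness to LOX3, and LOX3 ranked 166 by nearness to LOX4. AOC3 ranked 148 by nearness to AOS and 183 by nearness to LOX3. AOC2 and LOX4 were the farthest pair, at 1.31. Outside the 9, the genes nearest to LOX4 were DTX50 (AT5G52050), an efflux carrier of the MATE type, HEMA2, a glutamyl-tRNA reductase of tetrapyrrole synthesis, and PEN2, a myrosinase, at 0.0989, 0.104 and 0.125. The genes nearest to LOX2 were MFP1 (AT3G16000), AT4G12650 and AT5G06700, at 0.206, 0.211 and 0.215, so LOX2 had no gene as near as those of LOX4.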

How the data were processed

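The 8 libraries, from 4 lysates, were analysed from deposited tables. The authors deposited raw read counts per gene, over exons for the 4 RNA libraries and over coding sequences for all 8. CASAVA 1.8.2, Bowtie2 2.0, HTSeq and the build TAIR10 are named in the submitters' processing notes. The sources used here do not give the strand setting or the treatment of reads with several matches. Footprint values were blank for 62 of 27172 genes, which were left out of coding-sequence fits.

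Tests ran in R 4.3.3, with edgeR 4.0.16 as the main tool and DESeq2 1.42.0 and limma voom 3.58.1 as alternatives. Fits used TMM, filterByExpr (minimum 10 counts), glmQLFit and glmQLFTest over all genes, with Benjamini-Hochberg adjusted p under 0.05 as a call. The interaction term of assay with treatment measured efficiency. CPM were TMM-scaled within each set of libraries. The fitting code was also run on simulated counts with set changes, as a check of the code and not of the calls above.

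Of the other pathway genes, every called one is named, with up to 4 more a direction by test statistic; for LOX2 and LOX4, the 3 nearest genes. OPR2, VSP2 and the gene pairs were added after their values were seen. Members and lists were chosen with earlier results of these data known. Gene names came from RefSeq's table of assembly TAIR10.1, used for names and neighbours. Deviations of mock and elf18 libraries with the same replicate number in their titles correlated at 0.0215 in RNA and -0.0731 in footprints. Those of RNA and footprint libraries of the same lysate correlated at -0.0110 in mock and -0.00150 with elf18. A value near 0 thus cannot show that a pairing is absent.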

Additional observations from a re-analysis of the deposited data

How the results depend on the processing

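Calls were recomputed with other scaling, tests, filters, blocks and libraries; LOX3 and LOX4 rose under every alternative in exon RNA, coding-sequence RNA and footprints. In exon RNA, leaving out 1 library gave 2 to 6 risen enzyme genes and 0 to 2 fallen. The fits without RNA elf18 replicate 1 (5 risen, 2 fallen) or replicate 2 (6 and 0) called 9.92% and 9.31% of all genes risen and 16% and 13.4% fallen, and those without a mock library (2 and 3 risen) 2.84% and 2.8% risen and 0.0923% and 0.101% fallen. Over coding sequences, DESeq2 gave 6 risen, limma voom 4, the fit of all 8 libraries 4 (3.07% of all genes), and leaving out 1 library 2 to 6 risen (2.15% to 8.42% of all genes) and 0 to 2 fallen (0.0305% to 14.7%), the highest shares without RNA elf18 replicate 1. In footprints DESeq2 gave 1 fallen, and leaving out 1 library 2 to 5 risen (2.21% to 7.17% of all genes) and 0 to 1 fallen (0.0759% to 2.17%). For efficiency, leaving out 1 library gave 0 to 1 higher (0% to 0.215% of all genes). For footprints against RNA in mock, DESeq2 and no filter each gave 1 lower, and leaving out 1 library 0 to 2 higher (0.774% to 2.43% of all genes) and 0 to 1 lower (0.971% to 4.39%). With elf18, DESeq2's size factors gave 0 higher, DESeq2 2 lower (AOC1 beside OPR3), and leaving out 1 library 0 to 3 higher (1.27% to 4.34% of all genes).

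Whether the replicate number of the titles marks a pairing was not settled. The submitters' sample IDs end in 2 for mock replicate 1 but in 1 for elf18 replicate 1. For replicate 2 they end in 3 in both treatments. The correlations under processing were near 0 also for RNA and footprints of the same lysate, which are paired. With the replicate number as a block, 1 enzyme gene, LOX2, was called fallen in exon RNA, where 1.06% of all genes fell. Over coding sequences 1 was called fallen (1.03% of all genes) and 4 rose (4.38%). In footprints against RNA in mock 1 was lower (2.43%), as with the lysate block (3.1%). For the other pathway genes the replicate block gave 2 risen in exon RNA (4.71% of all genes) and 3 fallen in footprints (0.748%).

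Other pathway genes risen in exon RNA numbered 4 by DESeq2, which called 7.84% of all genes risen, and it called 4 fallen (8.71%). Risen ones numbered 2 by limma voom (3.08%), with no filter (3.1%) and with a mean of at least 50 counts (4.3%). In footprints, risen ones numbered 1 with DESeq2's size factors (2.66%) and with a mean of at least 50 counts (3.43%). Fallen ones numbered 3 by DESeq2 (2.74%), limma voom (0.748%) and no filter (0.521%), and 2 with all 8 libraries in 1 fit (0.297%). These counts also changed when 1 library was left out.

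AOC4 changed sign with single libraries: -1.45 to 0.21 in exon RNA, -1.17 to 0.51 over coding sequences, -0.57 to 0.43 in footprints, -0.63 to 1.08 in efficiency, -0.35 to 0.86 in footprints against RNA in mock and -0.37 to 1.29 with elf18. It was 0.19 over coding sequences and 0.083 in footprints by limma voom, and -0.065, -0.066 and -0.037 in efficiency with DESeq2's size factors, DESeq2 and limma voom. Without 1 library, OPR3 footprints ranged from -0.26 to 0.0016, LOX4 efficiency from -0.24 to 0.097, AOC3 efficiency from -0.063 to 0.41, AOC3 from -0.42 to 0.045 in mock and -0.12 to 0.077 with elf18, and AOC2 from -0.30 to 0.086 in mock. Causes were not tested.

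A fit without 1 library leaves a lone library assumed to vary like the others. A level per coding length was not run, since no coding lengths were used here. Summing the cyclases left LOX3, LOX4 and AOS risen in exon RNA and footprints. AOC4 had 37 to 156 exon counts per library, and 3 counts correspond to 0.195 to 0.380 CPM over exons.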
